A study of Mus musculus with 6 samples.

Results

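The 9 genes described here encode the phosphatidylinositol 3-kinase-related kinases (PIKKs) other than DNA-dependent protein kinase and proteins linked to their stability. They are Atm, Atr, Mtor, Smg1 and Trrap on the kinase side, Telo2, Tti1 and Tti2 of the TELO2-TTI cochaperone, and Brat1. All 9 were found by gene name among the 54532 genes of the count table, and all 9 were among the 13377 genes that passed the filter on low counts. The set was proposed with results of these libraries known. Telo2 and Brat1 are among the candidate genes that the study chose in part for their difference between these same insulin and vehicle libraries. The difference between the groups is therefore given for the 9 genes as a description, without a test. Counts of members past the criteria of the study are a description too.

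Liver RNA was sequenced from 6 male C57BL/6J mice with diet-induced insulin resistance (IR). All 6 were fed a high-fat diet (HFD) for 6 weeks from 8 weeks of age and fasted for 16 h. The IR insulin group (n = 3) then received insulin intraperitoneally at 0.75 units per kg body weight, the IR vehicle group (n = 3) received its bovine serum albumin (BSA) vehicle, and livers were collected after 6 h. There was no chow-fed group among these libraries, and every library is bulk liver, where fewer cells of a type and less RNA per cell cannot be told apart.

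PIKKs are very large serine/threonine kinases. ATM responds to DNA double-strand breaks, and ATR to single-stranded DNA at stalled replication forks. mTOR is the growth kinase that acts downstream of insulin and amino acids in hepatocytes. SMG1 phosphorylates UPF1 in nonsense-mediated mRNA decay, and TRRAP is a family member without kinase activity that serves as a scaffold of histone acetyltransferase complexes. TELO2, TTI1 and TTI2 form the TTT complex, which works with HSP90 and the R2TP complex in the folding of newly made PIKKs. BRAT1 binds ATM and BRCA1 and has been linked to the stability of PIKKs.

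Telo2 and Brat1, which the study had already picked in part on this contrast, showed the clearest separation between the groups. Both were higher in each insulin library than in each vehicle library, at 1.72-fold and 1.73-fold of the vehicle level. Tti1 and Tti2 differed by less than their standard error. Among the kinases, Mtor lay slightly higher with insulin without overlap, and Atm and Atr spread over several-fold within the vehicle group alone. Of all genes tested, 6.25% were separated in this way and higher with insulin. After the adjustment for GC content described below, Brat1 and Mtor overlapped between the groups. No gene of the 13377 tested passed an adjusted p of 0.05 (quasi-likelihood test of edgeR, Benjamini-Hochberg), with 0.852 as the lowest adjusted p. Before adjustment, 383 genes (2.86%) had p under 0.05 by edgeR, and DESeq2 put 548 past the criteria of the study given below.

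The promoters of 4 of the genes are shown for their values in these libraries. Telo2 and Brat1 had the largest log2 fold changes of the set, with separated groups. Mtor, whose groups were also separated, had the smallest vehicle spread, and Atm had the widest. Each RefSeq window (build GRCm38.p6) runs from 250 bases before to 50 bases after an annotated start site. Capitals mark matches, on either strand, to the GC box GGGCGG, the E-box CACGTG (bound by USF factors), the CCAAT box CCAAT, the ETS core CCGGAA, the cyclic AMP response half-site TGACG and the TATA sequence TATAAA. No match of one motif overlaps a match of another in these 4 windows.
Telo2, chr17:25115856-25116155, minus strand: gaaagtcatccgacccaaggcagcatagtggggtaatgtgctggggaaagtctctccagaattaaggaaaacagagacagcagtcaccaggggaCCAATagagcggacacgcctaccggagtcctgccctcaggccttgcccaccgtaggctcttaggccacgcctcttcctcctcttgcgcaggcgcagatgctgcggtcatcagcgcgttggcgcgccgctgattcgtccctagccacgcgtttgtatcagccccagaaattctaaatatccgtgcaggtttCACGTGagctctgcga
Brat1, chr5:140704761-140705060, plus strand: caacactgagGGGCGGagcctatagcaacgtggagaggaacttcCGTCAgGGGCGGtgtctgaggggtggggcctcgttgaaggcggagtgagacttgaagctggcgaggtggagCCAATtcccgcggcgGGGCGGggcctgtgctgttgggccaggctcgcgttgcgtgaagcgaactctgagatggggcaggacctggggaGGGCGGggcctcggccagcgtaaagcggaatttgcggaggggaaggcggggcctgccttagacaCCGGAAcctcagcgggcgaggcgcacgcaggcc
Mtor, chr4:148448332-148448631, plus strand: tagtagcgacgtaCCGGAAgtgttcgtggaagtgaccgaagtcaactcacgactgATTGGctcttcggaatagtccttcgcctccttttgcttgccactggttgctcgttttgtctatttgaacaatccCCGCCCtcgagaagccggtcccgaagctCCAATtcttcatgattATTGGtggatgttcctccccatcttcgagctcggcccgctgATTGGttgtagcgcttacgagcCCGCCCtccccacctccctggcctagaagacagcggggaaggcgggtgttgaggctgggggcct
Atm, chr9:53536622-53536921, minus strand: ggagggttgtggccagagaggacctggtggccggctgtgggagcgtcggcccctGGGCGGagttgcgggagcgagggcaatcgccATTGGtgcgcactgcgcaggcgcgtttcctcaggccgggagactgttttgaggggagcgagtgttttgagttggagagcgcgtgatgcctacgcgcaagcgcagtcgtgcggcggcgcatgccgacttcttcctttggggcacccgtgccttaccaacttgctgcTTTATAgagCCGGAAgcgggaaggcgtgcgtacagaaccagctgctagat

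RefSeq windows were found for 8 of the 9 genes, Tti2 being the exception. Telo2 and Brat1 each have 2 overlapping windows, for start sites 62 and 55 bases apart. The inner window of Telo2 and the outer window of Brat1 are printed above, in each case the window with more motif matches. The outer Telo2 window, at the annotated gene start, holds no E-box, and the inner Brat1 window holds 2 GC boxes. The 10 windows held between 16 and 32 CpG dinucleotides, against a median of 7 over the 32851 windows of all genes. The E-box occurs in 7.15% of all windows, and among the 10 it was found once, 34 bases downstream of the inner start site of Telo2. GC boxes occur in 35.7% of all windows. Brat1 held 4 in its outer window, Smg1 5, Mtor, Atr and Trrap 2 each and Atm 1, and none was found for Telo2 and Tti1. The CCAAT box, present in 37.4% of all windows, occurred 4 times upstream of Mtor and once each in Telo2, Brat1, Atm and Smg1. The ETS core, in 14.9% of all windows, was found once each in Tti1, Brat1, Atm, Atr and Mtor. The half-site TGACG (20.8% of windows) was found in Tti1, Atr and the outer window of Brat1, and TATAAA (13.6%) at the start site of Atm. Telo2 and Brat1 shared the CCAAT box and no other of these motifs.

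Library totals ran from 18449986 to 21827619 counts. Levels are CPM, read counts scaled to library size with trimmed mean of M-values (TMM) factors, and log2 fold changes are insulin over vehicle. Hepatocyte markers summed to between 53368 and 153927 CPM, and 4 of 5 pancreatic markers (Cpa1, Ctrb1, Amy2a5 and Pnlip) had no count in any library. Vehicle replicate 2 stood apart from the rest. Relative to the median of the remaining libraries, its level fell by 1.13 on the log2 scale for each 10 percentage points of GC content in the longest transcript, against slopes between −0.064 and 0.19 in the other libraries. It had the highest summed B cell markers (40.3 CPM against 2.86 to 10.04 CPM in the other 5) and erythroid markers (1182 CPM against 292 to 589 CPM). Neutrophil markers (72.9 CPM against 3.43 to 63.6 CPM), stellate cell markers (223 CPM against 119 to 198 CPM) and hepatocyte markers were highest there too. The remaining marker lists were highest in other libraries. Log2 fold changes of named genes that vehicle replicate 2 moved by more than 1.5 times are given with and without it.

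**Figure D1:**
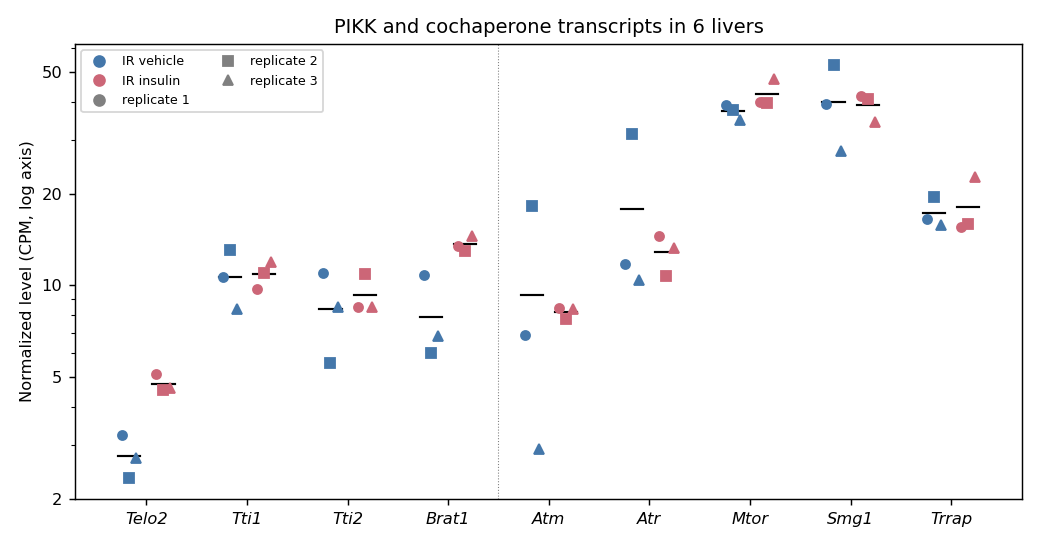
Normalized level of each gene in each liver (vertical log axis, CPM), vehicle in blue and insulin in red, with marker shapes for replicate numbers and a black bar for the group mean (n = 3). The insulin points of Telo2 and Brat1 lie above all their vehicle points, and the vehicle points of Atm run from 2.91 to 18.2 CPM around insulin points of 7.79 to 8.42 CPM.

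Telo2 encodes a subunit of the TTT complex. The gene occupies chromosome 17 from 25099570 to 25115967 on the minus strand (build 38), clear of other annotated genes. Its values were 3.23, 2.33 and 2.72 CPM in vehicle replicates 1, 2 and 3 and 5.13, 4.55 and 4.61 CPM with insulin. The lowest insulin library was thus well above the highest vehicle library. Mean expression was 2.76 ± 0.448 CPM with vehicle and 4.76 ± 0.321 CPM with insulin (SD, n = 3), a log2 fold change of 0.79 ± 0.29 (SE). These levels rest on 38 to 61 reads per vehicle library and 100 to 114 reads per insulin library, where 38 reads carry a counting error of 16.2% (square root of the count, counting error only). Without vehicle replicate 2 the log2 fold change was 0.68, and with an offset for GC content 0.56.

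Brat1 (chromosome 5, 140705011 to 140719379, plus strand) encodes a BRCA1- and ATM-binding protein. Vehicle replicates 1, 2 and 3 were at 10.8, 6.02 and 6.82 CPM, and the insulin replicates at 13.5, 13.0 and 14.5 CPM. The groups did not overlap, and vehicle replicate 1 lay closer to the insulin libraries than to the other vehicle libraries. The means were 7.87 ± 2.55 and 13.6 ± 0.764 CPM (SD, n = 3), with a log2 fold change of 0.79 ± 0.28 (SE). It was 0.64 without vehicle replicate 2 and 0.32 with the GC offset. The longest Brat1 transcript has 57.8% GC, the highest of the 9 genes. After the GC curve of each library was taken off, the vehicle value of replicate 2 (3.63 on the log2 CPM scale) was above all 3 insulin values (3.50 to 3.59), so that the Brat1 groups overlapped. The Telo2 groups stayed separate on that scale, with 1.40 to 1.78 for vehicle and 2.09 to 2.25 for insulin.

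Tti1 and Tti2 encode the other subunits of the TTT complex. Tti1 (chromosome 2, 157981803 to 158028433, minus strand) was at 10.6, 13.1 and 8.35 CPM with vehicle and 9.77, 10.996 and 11.9 CPM in the insulin group. All insulin values fell inside the vehicle range, and the log2 fold change was 0.031 ± 0.25 (SE). Tti2 (chromosome 8, 31150315 to 31164702, plus strand) was at 10.998, 5.59 and 8.49 CPM with vehicle and, in the insulin group, at 8.51, 10.9 and 8.49 CPM, with a log2 fold change of 0.15 ± 0.31 (SE). Here too the insulin libraries lay within the vehicle range. The log2 fold change of Tti1 was 0.21 without vehicle replicate 2 and −0.066 with the GC offset, and that of Tti2 was −0.061 and 0.19. Mak16 shares exonic sequence with Tti2 from the other strand. No source used here says that counting was strand-specific, and reads of Mak16 may be among those of Tti2.

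The proportions within the TTT complex can be read as ratios of level per kilobase (kb) of the longest transcript. Tti1 exceeded Telo2 by 3.995, 6.80 and 3.72 times in vehicle replicates 1, 2 and 3, and by 2.31, 2.93 and 3.14 times with insulin, so the ratio was lower in every insulin library. Tti2 exceeded Telo2 by 2.21 to 3.14 times with vehicle and 1.53 to 2.21 times with insulin, where the ranges met: insulin replicate 2 was just above vehicle replicate 2. The ratio of Brat1 to Telo2 ranged from 3.02 to 4.03 with vehicle and from 3.16 to 3.78 with insulin, with each insulin value inside the vehicle range. Telo2 enters all 3 ratios, which are therefore no measurement separate from its own level. The summed level of Telo2, Tti1 and Tti2 was 5.04 ± 0.601 CPM per kb with vehicle and 5.72 ± 0.342 CPM per kb with insulin (SD, n = 3), and these ranges overlapped.

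Mtor encodes the catalytic subunit of both mTOR complexes. It lies on chromosome 4 (148448611 to 148557683, plus strand), with Angptl7 on the opposite strand inside its introns. Its level was 39.0, 37.7 and 35.01 CPM in the vehicle mice and 39.9, 39.5 and 47.5 CPM in the insulin mice. The groups did not overlap, although the lowest insulin library exceeded the highest vehicle library by less than 1 CPM. The log2 fold change was 0.18 ± 0.20 (SE), smaller than its standard error. It was 0.20 without vehicle replicate 2 and turned to −0.14 with the GC offset. With that library left out and the GC offset applied it was 0.14. The vehicle libraries varied by a coefficient of variation (CV) of 5.43%, against a median of 36.2% over all genes tested.

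Smg1 (chromosome 7, 118131308 to 118243670, minus strand) had a level of 39.3, 52.98 and 27.7 CPM in the vehicle mice and 41.9, 40.9 and 34.3 CPM in the insulin mice. The vehicle values enclosed all insulin values. Its log2 fold change of −0.034 ± 0.28 (SE) became 0.23 without vehicle replicate 2 and 0.13 with the GC offset. Trrap (chromosome 5, 144767732 to 144859778, plus strand) was at 16.5, 19.5 and 15.7 CPM in the vehicle mice and 15.6, 15.9 and 22.7 CPM in the insulin mice. Insulin replicate 3 was the highest and insulin replicate 1 the lowest of its 6 values. The log2 fold change of Trrap was 0.068 ± 0.24 (SE), and it was 0.17 without vehicle replicate 2, −0.12 without insulin replicate 3 and −0.24 with the GC offset. With vehicle replicate 2 left out and the GC offset applied it was 0.11.

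Atm and Atr were the most variable of the 9 genes, and almost all of that spread was among the vehicle mice. Atm (chromosome 9, 53439149 to 53536740, minus strand) measured 6.87, 18.2 and 2.91 CPM in vehicle replicates 1, 2 and 3. The insulin libraries were at 8.42, 7.79 and 8.39 CPM. The insulin values thus fell within a narrow band between vehicle replicates 1 and 2. The CV was 85.2% with vehicle and 4.33% with insulin, where all genes tested had medians of 36.2% and 12.8%. The vehicle CV was the larger for 85.1% of all genes. The log2 fold change of −0.18 ± 0.57 (SE) turned to 0.75 without vehicle replicate 2 and was −0.61 without vehicle replicate 3. With the GC offset it was 0.18.

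Atr (chromosome 9, 95857597 to 95951781, plus strand) was at 11.8, 31.4 and 10.4 CPM in the vehicle mice and 14.5, 10.7 and 13.3 CPM in the insulin mice. Vehicle replicate 2 exceeded every other library by more than 2-fold, and the remaining 5 overlapped. The log2 fold change was −0.47 ± 0.43 (SE), 0.22 without vehicle replicate 2 and −0.093 with the GC offset. Exons of Atr overlap 1 annotated gene on the same strand and 2 on the opposite strand, so its counts are uncertain. B cell markers were also highest in vehicle replicate 2, as given above, as were hepatocyte markers (153927 CPM). T cell markers were at 0.982 CPM there, the second lowest of the 6 libraries (0.923 to 1.85 CPM). The part of lymphoid cells in the Atm and Atr levels was not tested.

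**Figure D2:**
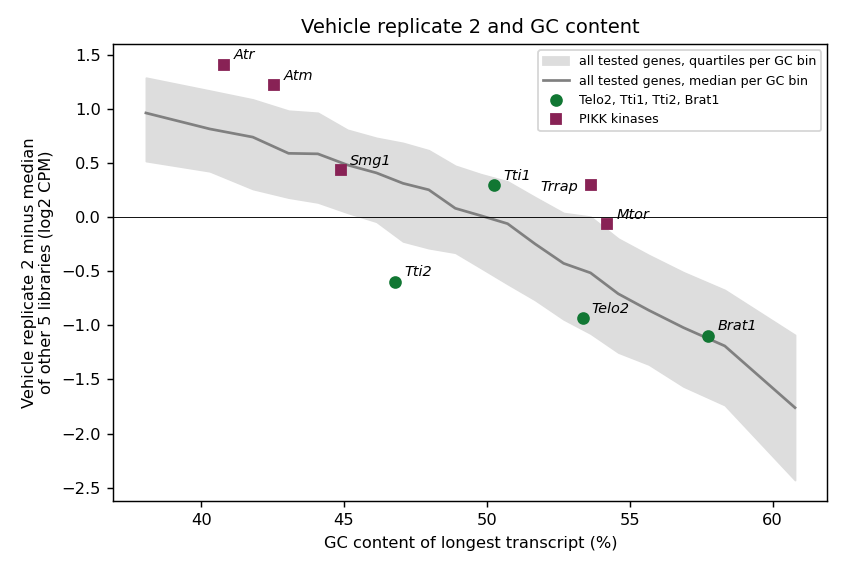
Level in vehicle replicate 2 relative to the median of the remaining 5 libraries (vertical axis, log2 CPM difference) against GC content of the longest transcript (horizontal axis, %), for Telo2, Tti1, Tti2 and Brat1 (circles), the 5 kinases (squares) and all tested genes in 20 GC bins (grey line: median, band: quartiles). Atr and Atm lie above the band at the GC-poor end, and Brat1 lies at −1.10 near the line. Tti2 lies below the band, Trrap above it and Mtor just above its upper edge.

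The kinases Atr, Atm and Smg1 have the GC-poorest transcripts of the set, at 40.8%, 42.6% and 44.9%, and each was highest in vehicle replicate 2. The deviations of Atr, Atm and Smg1 in that library were 1.41, 1.22 and 0.43 on the log2 scale. After its GC curve was taken off, 0.81, 0.66 and 0.099 remained. Brat1 and Telo2 deviated by −1.10 and −0.93 before and by 0.13 and −0.32 after the curve was removed. For the remaining members the deviation became larger in size. It went from −0.068 to 0.61 for Mtor, 0.29 to 0.90 for Trrap, 0.30 to 0.47 for Tti1 and −0.60 to −0.87 for Tti2. GC content did not order all members. Tti2, at 46.8% GC, was lower in vehicle replicate 2 by 0.60 on the log2 scale, while Trrap, at 53.6% GC, was higher by 0.29. Of the 9 genes, 3 had their lowest value in vehicle replicate 2 (37.4% of all genes), 4 had their highest there (35.8% of all genes) and 5 had their lowest in vehicle replicate 3 (23.8% of all genes).

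**Figure D3:**
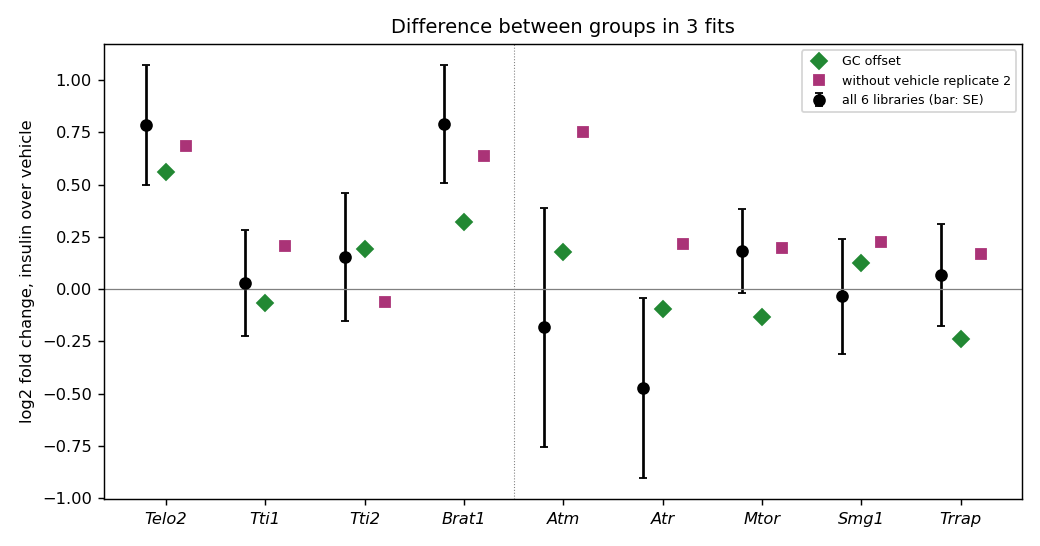
Log2 fold change of insulin over vehicle (vertical axis) for each gene with all 6 libraries (black, bar ± SE), with a GC offset (green diamonds) and without vehicle replicate 2 (purple squares). Telo2 and Brat1 are above 0 in all 3 fits, and Atm, Atr and Smg1 are below 0 with all 6 libraries and above 0 without vehicle replicate 2.

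In the fit of all 6 libraries, 6 of the 9 genes had a positive log2 fold change (48.6% of all genes), as did 6 by DESeq2 (49.0%), 5 with the GC offset (42.0%) and 8 without vehicle replicate 2 (52.1%). Insulin and vehicle values were fully separated in 3 of the 9, Telo2, Brat1 and Mtor, all higher with insulin (6.25% of all genes), and in none that was lower with insulin (6.04%; 12.3% in either direction). After the GC curves were taken off, Telo2 was the one gene of the 9 without overlap (3.81% of all genes higher with insulin). The study called a gene differentially expressed at a log2 fold change of 0.35 or more in size with p under 0.05 before adjustment, and chose its candidates by stricter limits. Of the 9 genes, Telo2 and Brat1 met this (2.86% of all genes in either direction). The same pair met it as genes higher with insulin by DESeq2 (0.760%) and without vehicle replicate 2 (1.64%), and neither did with the GC offset (0.680%). The study picked these 2 genes in part on this contrast, besides a positive association with FASN levels, so their counts carry no independent information. The study also measured its candidates by quantitative PCR, which is not part of these libraries. Leaving out any 1 insulin library took both genes out of these criteria, and without vehicle replicate 3 Brat1 no longer met them. Telo2 kept a positive sign in all 15 alternatives, with log2 fold changes from 0.56 to 0.91, as did Brat1, from 0.32 to 1.09. The other 7 genes changed sign in at least 2 of the 15, Smg1 in 9 and Atm in 6.

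**Figure D4:**
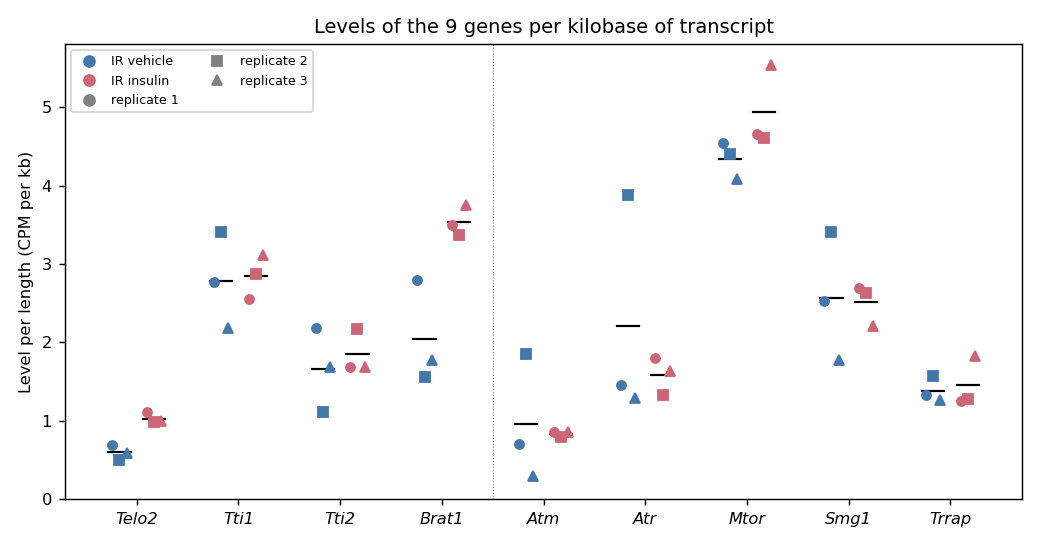
Level per length of each gene in each liver (vertical axis, CPM per kb of the longest transcript, from 0), vehicle in blue, insulin in red, black bars for group means (n = 3). Mtor is at the top in both groups, and Telo2 and Atm are at the bottom.

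Compared per length, the transcripts were of modest abundance. Mtor had the highest level, at 4.35 ± 0.236 CPM per kb with vehicle and 4.94 ± 0.526 CPM per kb with insulin (SD, n = 3), and stood at the 54.0th percentile of all genes tested. With insulin the order below it was Brat1 (3.54 ± 0.198 CPM per kb), Tti1 (2.85 ± 0.285), Smg1 (2.51 ± 0.265), Tti2 (1.85 ± 0.276), Atr (1.59 ± 0.239), Trrap (1.45 ± 0.323), Telo2 (1.03 ± 0.0692) and Atm (0.835 ± 0.0362). Of the 8 pairs of neighbours in this order, 3 overlapped (Tti1 with Smg1, Tti2 with Atr, and Atr with Trrap). With vehicle, 7 of the 8 neighbouring pairs overlapped, and Mtor over Tti1 was the pair that did not. Telo2 had the lowest mean over the 6 libraries, at the 19.0th percentile, although its libraries overlapped those of Atm. By the longest protein-coding transcript, a length chosen after the data were seen, Telo2 and Atm changed places. By the union of all exons Atr fell to the eighth place. Atm took 3.40 to 12.3% of the summed level of the 5 kinases with vehicle and 7.08 to 7.62% with insulin.

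The genes whose profile over the 6 libraries lay nearest to that of Telo2, by Euclidean distance between centred log2 CPM, were Ehbp1l1 (distance 0.112), Trmt9b (0.221) and Fblim1 (0.231). Ehbp1l1 was at 8.09, 5.46 and 6.77 CPM in the vehicle mice and 12.2, 11.3 and 11.7 CPM in the insulin mice. For Atm they were Slfn8 (0.390), Kcnj10 (0.439) and Cenpj (0.449), of which Slfn8 was at 2.96, 6.63 and 1.19 CPM with vehicle and 2.58 to 3.15 CPM with insulin. These distances describe 6 libraries and were not tested.

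The partners and substrates of the kinases did not pass the test either. Of 113 genes in 9 lists, 110 were tested, none passed an adjusted p of 0.05 by edgeR, and 1 had an unadjusted p under 0.05 (2.86% of all genes tested). That gene was Trp53inp1, a p53 target, with a log2 fold change of −0.81 ± 0.34 (SE; adjusted p 0.852). Its unadjusted p was 0.0434, and 0.151 with the GC offset, 0.104 without vehicle replicate 2 (edgeR). The gene was at 43.3, 103.9 and 91.3 CPM with vehicle and 38.8 to 48.7 CPM with insulin. The adjusted p was 0.872 for Prkdc and 0.852 for every other partner gene named here (edgeR). Over all 110 genes, 65 had a positive and 45 a negative log2 fold change, with a median of 0.057 beside −0.017 over all genes tested. Values of insulin and vehicle were fully separated in 7 genes that were higher and 4 that were lower with insulin, of 110, beside 12.3% of all genes.

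Among the 16 genes of the HSP90, R2TP and casein kinase 2 machinery that act with TELO2, 8 had a positive and 8 a negative log2 fold change (median −0.0026, and 0.062 without vehicle replicate 2). Pdrg1, a subunit of the R2TP-associated prefoldin-like complex, had the smallest p of the list at 0.93 ± 0.46 (SE). It was at 16.9, 3.93 and 10.2 CPM with vehicle and 18.9 to 20.9 CPM with insulin, without overlap, and its change was 0.55 without vehicle replicate 2. Csnk2a1, a catalytic subunit of casein kinase 2, which phosphorylates TELO2, was at −0.56 ± 0.34 (SE). Its value in vehicle replicate 2, 140.5 CPM, was the highest by far (57.5 to 65.0 CPM in the other 5), and without it the change was −0.070.

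The 8 subunits of the mTOR complexes had a median of 0.038, with 5 positive and 3 negative values. Rictor and Deptor, the defining subunit of mTORC2 and an inhibitory subunit, had the smallest p, at −0.37 ± 0.26 and −0.37 ± 0.29 (SE). Both were highest in vehicle replicate 2, and without it they were at −0.11 and −0.025. Regulators and substrates of mTORC1 had a median of 0.055 over 20 tested genes, and −0.033 without vehicle replicate 2. Rps6kb1, which encodes S6 kinase 1, and Grb10, an adaptor that restrains insulin receptor signalling, had the smallest p, at −0.48 ± 0.29 and −0.54 ± 0.35 (SE). Rps6kb1 was at 31.43 to 60.8 CPM in vehicle and 28.5 to 31.41 CPM in insulin libraries. The groups did not overlap, but vehicle replicate 3 and insulin replicate 3 were nearly equal. Its log2 fold change was −0.11 without vehicle replicate 2, where Grb10 was at −0.24.

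For ATM, the 10 partners and substrates had a median of 0.32, with 8 positive and 2 negative values, and 0.22 without vehicle replicate 2. Trp53bp1 and Trp53, which encode the repair factor 53BP1 and p53, had the smallest p, at 0.54 ± 0.29 and 0.51 ± 0.30 (SE). Without vehicle replicate 2 they were at 0.56 and 0.28, and with the GC offset at 0.55 and 0.33. Trp53bp1 did not overlap between the groups, at 3.58 to 5.18 CPM with vehicle and 5.24 to 7.75 CPM with insulin. The 10 p53 targets were divided, 5 positive and 5 negative, and besides Trp53inp1 the proapoptotic gene Bax was named by its p, at 0.89 ± 0.43 (SE), 0.53 without vehicle replicate 2 and 0.25 with the GC offset. The 9 tested ATR partners had a median of 0.057 (0.12 without vehicle replicate 2), and their smallest p belonged to Etaa1, an activator of ATR (−0.48 ± 0.37), and Timeless, a replication fork protein (0.41 ± 0.33). They were at −0.15 and 0.26 without vehicle replicate 2, and at −0.14 and 0.13 with the GC offset.

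All 9 genes that act with SMG1 in nonsense-mediated decay had a positive log2 fold change, where 48.6% of all genes did, with a median of 0.23 and none past the test. Without vehicle replicate 2 the median was 0.014 with 6 positive, and with the GC offset 0.15 with 8 positive. Upf1, the RNA helicase that SMG1 phosphorylates, was at 60.8, 44.3 and 53.8 CPM in the vehicle mice and 69.9, 67.5 and 78.2 CPM in the insulin mice. The groups did not overlap, and the log2 fold change was 0.44 ± 0.22 (SE), 0.33 without vehicle replicate 2 and −0.084 with the GC offset. Smg5, a decay adaptor, was at 0.39 ± 0.26 (SE), 0.20 without vehicle replicate 2 and 0.0094 with the GC offset. In the TRRAP complexes, 14 of 26 genes were positive and 12 negative (median 0.027, and −0.00074 without vehicle replicate 2), with Kat2b, an acetyltransferase, at −0.54 ± 0.28 and Tada3, an adaptor, at 0.46 ± 0.27 (SE). Without vehicle replicate 2 they were at −0.28 and 0.31, and with the GC offset at −0.45 and 0.088. Of the DNA-PK genes, Xrcc5, which encodes Ku80, was at −0.39 ± 0.31 and Prkdc, the sixth PIKK, at −0.28 ± 0.42 (SE). Without vehicle replicate 2 they were at −0.021 and 0.21, and the median of the 3 DNA-PK genes turned from −0.28 to 0.032. Like Atm, Prkdc was highest in vehicle replicate 2 (11.9 CPM) and lowest in vehicle replicate 3 (3.82 CPM), with 5.40 to 7.38 CPM in the insulin libraries.

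**Figure D5:**
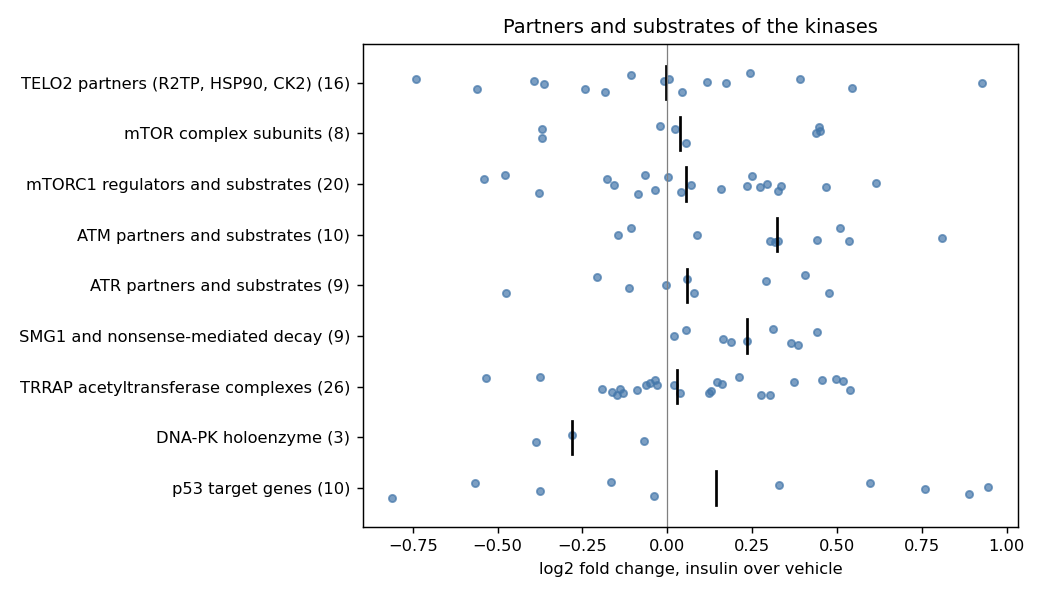
Log2 fold change of insulin over vehicle (horizontal axis) for every tested gene of the 9 lists of partners and substrates, with the number tested in brackets and a black line at the list median. Points of every list but those of SMG1 and DNA-PK lie on both sides of 0.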

How the data were processed

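RNA sequencing libraries of 6 mouse livers were analysed, 3 per group, with groups and replicate numbers taken from the sample titles. The deposited table held raw read counts per gene, neither normalized nor pooled. According to the study's methods and the submitters' processing notes, the authors prepared NEBNext Ultra libraries, used an Illumina HiSeq for sequencing, and mapped reads to mm10 by Bowtie2 version 2.2.3. The counting program, the annotation release and the strand setting are not given in the sources used here. An aligner without splicing can lose reads across exon junctions, which bears on genes with many exons such as Trrap (71 exons) and Smg1 (63 exons).

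Genes were kept with filterByExpr (minimum count of 10, minimum total of 15), scaled by TMM and fitted with glmQLFit and glmQLFTest of edgeR 4.0.16 (R 4.3.3) without a covariate, with Benjamini-Hochberg adjustment over 13377 genes. SEs were derived from the F statistic. The biological coefficient of variation was 0.357. The code was tested on simulated data with less variation between replicates than these libraries and no GC effect. That checked the code and not the power to find differences here. An exact permutation of 3 against 3 libraries was not used. Alternatives were RLE and upper-quartile scaling, no filter, DESeq2 1.42.0, voom of limma 3.58.1 with quality weights, a GC offset (loess, span 0.5, on log2 CPM with a prior count of 2), a replicate block with and without that offset, and leaving out each library. Gene models, length and GC content came from GENCODE M21 (build 38) and promoters from RefSeq (GRCm38.p6).

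The members and lists were chosen with earlier results of these data known. Named are the 9 genes, the 2 partner genes per list with the smallest unadjusted p, the 3 genes nearest in profile to Telo2 and to Atm, and marker genes at 0. The replicate numbers were checked for pairing. Deviations of same-numbered libraries from their group means correlated at −0.039 to 0.069 across genes, and those of different-numbered libraries at −0.11 to 0.089. With these ranges the check cannot tell whether the numbers pair the mice, and the main fit did not pair them. Each library came from 1 mouse.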

Additional observations from a re-analysis of the deposited data

How the results depend on the processing

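No gene passed an adjusted p of 0.05 in any of the 15 alternatives. Under the study's criteria the count of genes, 383, was 742 when no low-count filter was applied, 213 with voom and ran from 99 to 1349 when 1 library was left out, lowest without insulin replicate 1 and highest without vehicle replicate 1. The count of members past these criteria, 2, was 0 with the GC offset, 1 with the replicate block, 0 with the replicate block and GC offset together, and ran from 0 to 2 when 1 library was left out, being 0 without insulin replicate 1, 2 or 3, and 1 without vehicle replicate 3. With the replicate block, Telo2 was the member that no longer passed, and its log2 fold change was 0.80. Whether these numbers pair the mice is not known. Members with a positive log2 fold change numbered 5 to 8, against 6 in the fit reported.

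The median of the TELO2 partner list, −0.0026, was −0.016 with RLE scaling, 0.047 with upper-quartile scaling, 0.034 with no filter, 0.074 with voom, −0.14 with the GC offset and −0.052 with the replicate block and GC offset, and ran from −0.082 to 0.062 when 1 library was left out. The ATM list moved to 0.13 with voom, and the mTOR subunits ran from −0.083 to 0.13 when 1 library was left out. With vehicle replicate 2 left out and the GC offset applied, an alternative chosen after the data were seen, the mTORC1 list was at −0.066 and the SMG1 list at −0.017. Telo2, Brat1 and Atm were then at 0.63, 0.54 and 0.78. The 2 members past the criteria were Telo2 and Atm, while Brat1 no longer passed, and 517 genes in all passed in that fit. The members were proposed with this contrast known, so these counts are no test of them. Telo2 had the lowest counts of the members, and its levels carry the largest counting error.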
